A study of Mus musculus with 14 samples.

Results

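The 10 genes described here, Kdr, Flt1, Tek, Tie1, Aplnr, Pecam1, Cdh5, Esam, Emcn and Egfl7, are genes of the endothelium, the cell layer that lines blood vessels. They were chosen by name, with earlier results of these data known, and read from the probe sets annotated to exactly 1 of these symbols. They made up 10 of the 12394 genes on the arrays, with 17 probe sets. Their RNA was first compared between the tissue layers of the mouse intestine at embryonic day 12 (E12) and then between crypts and villi of the adult small intestine, in a series on gene regulation along the crypt-villus axis. The E12 groups were mesenchyme, from which muscle and connective tissue arise, and endoderm, which gives rise to the epithelial lining; both were separated from fetal intestine after collagenase digestion. One table of 6 arrays held 3 samples of each layer, numbered 2 to 4 and each pooled from 10 to 12 fetuses. A second table of 8 arrays held 1 further mesenchyme and 1 endoderm sample, each pooled from 35 fetuses, and the adult samples: 3 of crypts, the pockets that hold the dividing epithelial cells, and 3 of villi, the projections covered by mature epithelium, all from C57BL/6 mice 12 weeks old and named K12, K21 and K41 (crypts) and V12, V41 and V275 (villi). The strain of the fetuses is not given in the sources used here, and no group carried a mutation or treatment that the labels name.

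Endothelial cells form vessels under the control of secreted growth factors. Vascular endothelial growth factor (VEGF) binds the receptor tyrosine kinases Kdr and Flt1 and drives endothelial growth and sprouting, with Flt1 also acting as a trap for the ligand. Angiopoietins bind the receptor Tek, which works together with its relative Tie1 in vessel maturation, and the peptide apelin binds Aplnr. Cdh5, Pecam1 and Esam are adhesion molecules of the contacts between endothelial cells, Emcn is a mucin-like glycoprotein of their surface, and Egfl7 is a protein that endothelial cells secrete into the matrix around forming vessels. In the intestine, vessels run in the mesenchyme and, in the adult, in the connective tissue core of the villus and around the crypts, not within the epithelium.

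All 10 genes were higher in E12 mesenchyme than in E12 endoderm, by 0.78 (Egfl7) to 6.67 (Aplnr) on the log2 scale, with an adjusted p under 0.05 for each (limma with Benjamini-Hochberg adjustment over the 9442 genes tested, 3 arrays against 3). Of all genes tested, 25.4% were called higher in mesenchyme and 27.7% lower, and the median difference of all genes was -0.03 against 2.98 for the 10 endothelial genes. The 3 mesenchyme arrays lay above the 3 endoderm arrays for 10 of 10 genes, where 29.1% of all genes showed this. By at least 4-fold, 8 of the 10 differed, where 5.10% of all genes did. Because the genes were chosen with earlier results of these data known, these shares describe the genes and are not a test. Values are log2 signals, in which a difference of 1 is a doubling, and a gene was tested where its signal passed the 30th percentile of the table, 4.74, in at least 3 arrays. For Tek, Tie1, Aplnr, Pecam1, Cdh5 and Emcn all 3 endoderm arrays were below that signal, so these 6 genes entered the test only through the mesenchyme and had to differ, and their differences are set in part by the array background. In these bulk samples, fewer cells of a type and less RNA per cell cannot be told apart.

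Of the VEGF receptors, Kdr measured 8.94, 8.58 and 8.55 in mesenchyme pools 2, 3 and 4 and 4.82, 4.87 and 5.0 in the endoderm pools of the same numbers. The lowest mesenchyme array thus lay far above the highest endoderm array, and the difference was 3.79 ± 0.12 (SE, n = 3 per group, limma adjusted p = 6.8e-08), or 13.9-fold. Flt1, the second receptor for VEGF, measured 6.84, 6.57 and 6.95 in mesenchyme and 5.57, 5.33 and 5.40 in endoderm. Its groups did not overlap either, but the difference of 1.35 ± 0.12 (SE, n = 3 per group, limma adjusted p = 2.9e-05) was only 2.56-fold, and the endoderm arrays were above the signal used as the lower limit for testing.

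Tek, the angiopoietin receptor, measured 6.88, 7.01 and 6.61 in mesenchyme and 4.18, 4.37 and 4.00 in endoderm, a difference of 2.65 ± 0.14 (SE, n = 3 per group, limma adjusted p = 8.8e-07), or 6.28-fold. Tie1, its partner, measured 7.05, 7.37 and 7.22 in mesenchyme and 4.30, 4.32 and 4.17 in endoderm, a difference of 2.95 ± 0.11 (SE, n = 3 per group, limma adjusted p = 1.2e-07), or 7.73-fold. The pair of receptors was low in every endoderm array and at least 2 log2 units higher in every mesenchyme array. Aplnr, the receptor for apelin, measured 10.97, 10.89 and 10.70 in mesenchyme and 4.19, 3.99 and 4.38 in endoderm. Its difference of 6.67 ± 0.12 (SE, n = 3 per group, limma adjusted p = 1.2e-08), or 102-fold, was measured against endoderm arrays below the limit of 4.74, and its other probe set gave 2.62.

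Among the adhesion and surface molecules, Pecam1 measured 8.15, 7.97 and 8.02 in mesenchyme and 4.55, 4.61 and 4.56 in endoderm, a difference of 3.47 ± 0.09 (SE, n = 3 per group, limma adjusted p = 2.2e-08), or 11.1-fold. Cdh5, the cadherin of endothelial junctions, measured 7.43, 7.53 and 7.09 in mesenchyme and 4.19, 4.55 and 4.25 in endoderm, a difference of 3.02 ± 0.15 (SE, n = 3 per group, limma adjusted p = 5.7e-07), or 8.11-fold. Both were low in all endoderm arrays, with no overlap. Emcn, the surface mucin, measured 7.81, 7.47 and 7.68 in mesenchyme and 4.21, 4.19 and 4.05 in endoderm, a difference of 3.50 ± 0.11 (SE, n = 3 per group, limma adjusted p = 5.6e-08), or 11.3-fold. Esam, an immunoglobulin-like molecule of endothelial tight junctions, measured 7.61, 7.69 and 7.52 in mesenchyme and 5.32, 5.05 and 5.35 in endoderm, a difference of 2.37 ± 0.11 (SE, n = 3 per group, limma adjusted p = 4.3e-07), or 5.16-fold. Emcn and Esam were also separated by layer in every array, with Esam above the lower limit for testing in the endoderm.

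The secreted protein Egfl7 measured 8.01, 8.21 and 8.13 in mesenchyme and 7.58, 7.29 and 7.13 in endoderm. All 3 endoderm arrays carried a clear signal, and the difference of 0.78 ± 0.13 (SE, n = 3 per group, limma adjusted p = 0.0010) was the lowest of the 10, at 1.72-fold. The gap between the lowest mesenchyme and the highest endoderm array was still 0.43. Within a layer the 10 genes varied little between pools, by 0.17 to 0.44 over the mesenchyme pools and by 0.06 to 0.45 over the endoderm pools. Mesenchyme pool 2 was the highest for 4 genes, pool 3 for 5 and pool 4 for 1, so no single pool carried the signal of all 10.

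**Figure D1:**
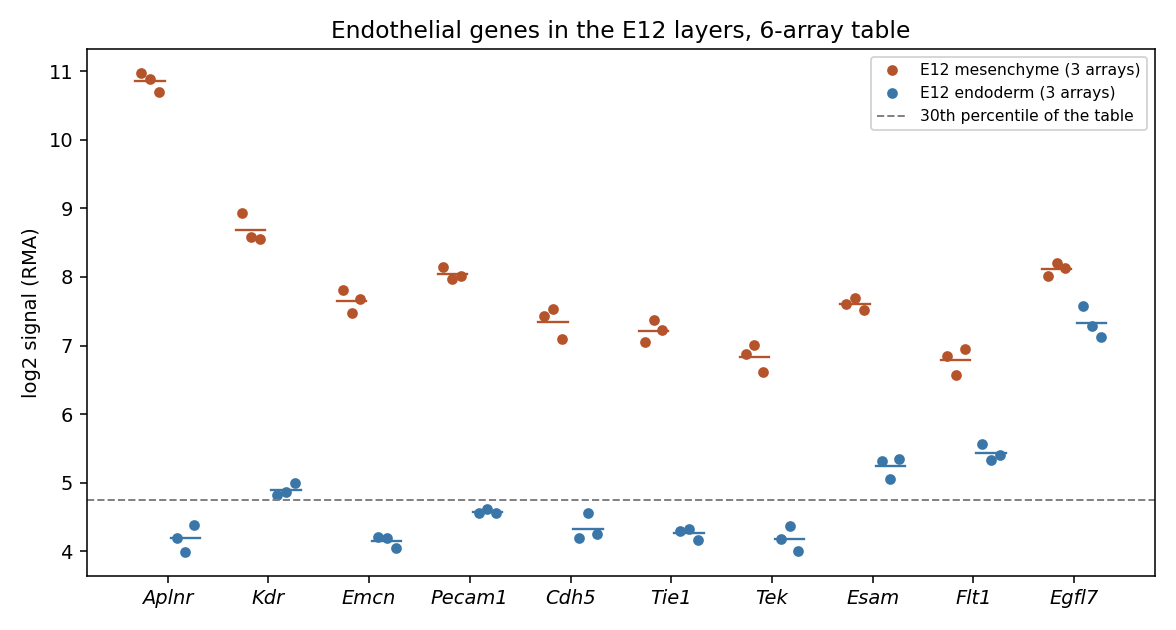
Log2 signal of the 10 endothelial genes (horizontal axis) in the 6 arrays of the E12 comparison, with a point for each array, a short line for the mean of each layer and a dashed line at the 30th percentile of the table, 4.74. The mesenchyme arrays lie above the endoderm arrays for every gene, from a difference of 0.78 for Egfl7 to 6.67 for Aplnr.

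Several genes were measured by more than 1 probe set, and the values above are those of the probe set with the highest mean signal. Over all 17 probe sets, 16 passed the lower limit in the E12 arrays and 15 were called higher in mesenchyme, where 22.4% of all probe sets were. The size of the difference depended on the probe set. For Aplnr the other probe set gave 2.62 in place of 6.67, and for Flt1 the 3 probe sets gave 2.38, 1.35 and 0.62. The 4 probe sets of Egfl7 gave 0.78, 0.64, 0.41 and 0.04, and the last was not called (95% interval of the difference -0.15 to 0.23). For Cdh5 the second probe set did not pass the lower limit and differed by 0.21 (95% interval -0.07 to 0.48), and the median of its probe sets gave 1.61 in place of 3.02. With the probe sets of a gene summarised by their median, Aplnr, Cdh5 and every other gene of the 10 were still called higher in mesenchyme.

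**Figure D2:**
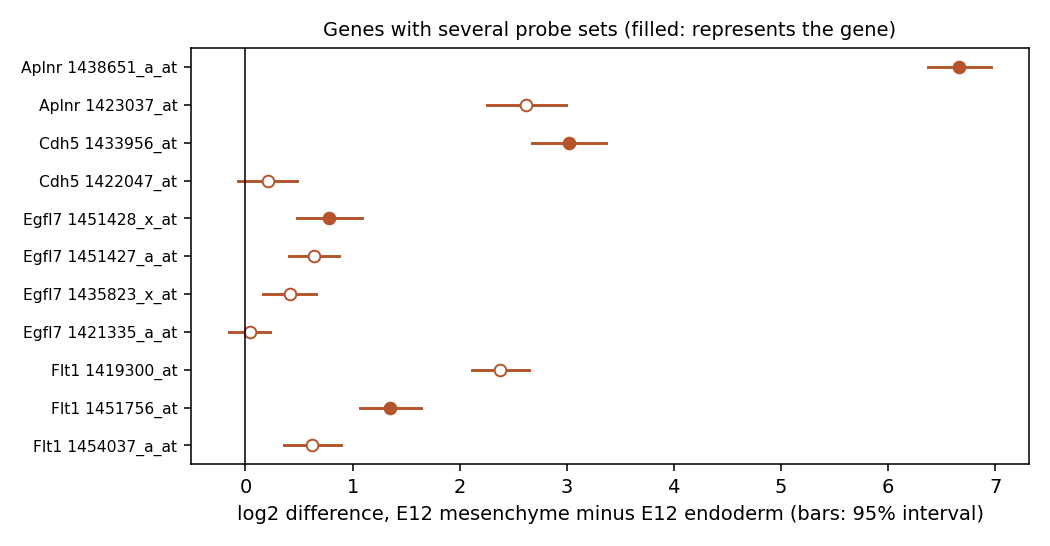
Log2 difference, E12 mesenchyme minus E12 endoderm, of each probe set of the 4 genes with more than 1, with bars for the 95% interval and a filled point for the probe set that represents the gene. Aplnr spans 2.62 to 6.67 and Egfl7 0.04 to 0.78 between their probe sets.

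The promoters of the genes were read to see which sequence they share, since all 10 were higher in the same layer. RefSeq promoter windows (assembly GRCm38.p6) matched 6 of the 10 symbols, Kdr, Flt1, Tek, Tie1, Emcn and Egfl7, with 8 promoters because Egfl7 has 3; Pecam1, Cdh5, Esam and Aplnr were not matched. The 250 bases before each start were searched on both strands for exact matches of 6 bases. AGGAAG or CGGAAG are forms of the sites bound by ETS factors, a family known for its part in endothelial gene expression. AGATAA or TGATAA are forms of GATA factor sites, and TATAAA is the TATA box. Other forms of ETS and GATA sites were not searched for. No match overlapped another in the promoters of the 6 genes. An ETS match was found in 5 of the 8 promoters (Flt1, Tie1, Emcn and 2 of the 3 of Egfl7), where 39.2% of all 32851 promoters hold one. A GATA match was found in 1 of the 8 (Egfl7, 16.6% of all promoters) and a TATA box in 1 of the 8 (Flt1, 12.4%). Flt1, Emcn and Tie1 are shown because each holds 2 ETS matches. Kdr is shown because it, like Tek, holds none of the 6-base matches searched for. Capitals mark the matches, and the sequences run 5′ to 3′ on the strand of the gene. The windows are chr5:147726012-147726261 on the minus strand for Flt1, chr3:137340828-137341077 on the plus strand for Emcn, chr4:118489850-118490099 on the minus strand for Tie1 and chr5:75978456-75978705 on the minus strand for Kdr.
Flt1: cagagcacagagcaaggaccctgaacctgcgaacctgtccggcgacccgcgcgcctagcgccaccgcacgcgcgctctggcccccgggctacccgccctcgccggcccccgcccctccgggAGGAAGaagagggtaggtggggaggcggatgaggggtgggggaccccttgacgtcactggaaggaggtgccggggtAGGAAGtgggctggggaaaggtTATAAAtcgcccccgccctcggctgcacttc
Emcn: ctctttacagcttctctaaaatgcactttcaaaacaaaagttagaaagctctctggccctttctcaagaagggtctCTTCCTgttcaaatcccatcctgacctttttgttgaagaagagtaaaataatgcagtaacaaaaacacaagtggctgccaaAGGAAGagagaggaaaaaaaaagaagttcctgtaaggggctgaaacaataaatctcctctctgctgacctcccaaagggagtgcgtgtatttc
Tie1: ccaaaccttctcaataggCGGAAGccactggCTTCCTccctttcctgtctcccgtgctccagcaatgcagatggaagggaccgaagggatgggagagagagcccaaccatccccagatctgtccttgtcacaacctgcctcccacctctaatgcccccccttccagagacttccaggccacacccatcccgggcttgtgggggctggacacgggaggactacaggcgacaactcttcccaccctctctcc
Kdr: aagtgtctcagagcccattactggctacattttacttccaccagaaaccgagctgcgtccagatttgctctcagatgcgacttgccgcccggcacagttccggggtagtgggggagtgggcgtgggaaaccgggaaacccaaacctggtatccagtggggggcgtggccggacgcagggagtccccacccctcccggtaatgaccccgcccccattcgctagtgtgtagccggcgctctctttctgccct
A match describes the letters only, and no binding was measured.

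The single pair of E12 samples pooled from 35 fetuses, which lies in the other table and has no replicate, had all 10 genes in the same direction. Of the 2395 genes called higher in mesenchyme, 93.1% were higher there in this pair too, and so were all 482 that were called at least 4-fold higher. Aplnr measured 10.44 in mesenchyme and 4.88 in endoderm of the pair, a difference of 5.56, and Kdr measured 8.70 and 7.06, a difference of 1.65. Emcn differed by 2.36, Pecam1 by 2.33, Cdh5 by 1.96, Tie1 by 1.79, Esam by 1.74, Tek by 1.53, Flt1 by 0.55 and Egfl7 by 0.23. Each of the 10 differences was smaller than in the 6-array table, with a median ratio of 0.63, and so were 81.7% of those of the 2395 genes, with a median ratio of 0.65. For the 482 genes the share was 95.4% and the median ratio 0.66. The 30th percentiles of the 8-array and the 6-array table were 5.78 and 4.74, so levels are not set across the tables. The tables also came from different array platforms, so platform, table and pool size cannot be told apart in these ratios.

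The other genes of the same pathways were mostly higher in the mesenchyme as well, where 25.4% of all genes tested were called higher and 27.7% lower. As for the 10 genes, some had an endoderm signal near background: the mean of the endoderm arrays was below the limit of 4.74 for 1 of the 7 ligands and coreceptors, 9 of the 20 surface genes, 4 of the 13 transcription factors and 2 of the 5 Notch genes called higher, so the differences of Vegfc, Cd93, Cd34, Ets1 and Notch4 below are set in part by background. Of 10 tested ligands and coreceptors of the VEGF, angiopoietin and apelin systems, 7 were higher in mesenchyme and 2 lower, with a median difference of 1.07. Nrp1, a coreceptor for VEGF, measured 9.70 ± 0.16 in mesenchyme and 4.97 ± 0.16 in endoderm (SD, n = 3 each), a difference of 4.73, and Vegfc, a ligand of the lymphatic VEGF receptor, differed by 2.25. Of the ligands of the receptors above, Angpt1, which activates Tek, differed by 1.30 and apelin (Apln) by 0.82. The 2 genes lower in mesenchyme were Angpt2, the context-dependent ligand of Tek, by -0.66, and Vegfa, the main ligand of Kdr, by -0.45 (limma adjusted p = 0.0020 and 0.0036). With the median of probe sets only 1 gene of this list was called lower. These and the other genes that the rule for naming did not pick were chosen after their values were seen.

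Of 22 other endothelial surface and junction genes tested, 20 were higher in mesenchyme and 0 lower, with a median of 1.59. Of all genes tested, 25.4% were called higher in mesenchyme and 27.7% lower, here and for the lists below. Cd93, a lectin-like surface receptor, differed by 4.08 and Cd34, a sialomucin of endothelial and blood progenitor cells, by 3.65. Of 19 tested transcription factors of endothelial cells, 13 were higher and 1 lower, with a median of 1.52. Ets1 measured 9.95 ± 0.20 in mesenchyme and 4.33 ± 0.09 in endoderm (SD, n = 3 each), a difference of 5.63, and Elk3, another ETS factor, differed by 3.57. The factor lower in mesenchyme was Ets2, by -0.92, and Erg, an ETS factor prominent in endothelium, differed by -0.02 (limma adjusted p = 0.93). Of 7 tested genes of Notch signalling in vessels, 5 were higher and 0 lower, with a median of 1.63, led by the target Hey1 at 2.16 and the receptor Notch4 at 2.05. Only 2 lymphatic endothelial genes were tested, and Reln, a secreted matrix protein, was lower in mesenchyme by -0.50. The mean of Reln was 4.54 in mesenchyme, below the lower limit for testing, and 5.04 in endoderm. This difference is therefore also set in part by background.

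Markers of the other cells that the mesenchyme holds moved with the 10 genes. Their counts stand beside 25.4% of all genes called higher in mesenchyme and 27.7% called lower. Of 13 tested genes of pericytes and vessel smooth muscle 12 were higher, with a median of 3.82, led by the contractile genes Myh11 at 6.70 and Acta2 at 6.10; the mean level of the list was 9.08 to 9.26 in mesenchyme arrays and 5.36 to 5.62 in endoderm arrays. Of 13 mesenchyme and fibroblast genes 12 were higher, with a median of 4.86, led by the transcription factor Tcf21 at 6.50 and the collagen Col1a1 at 6.48 (list level 9.75 to 9.82 against 5.70 to 6.06). Of 7 enteric neural crest genes 6 were higher and 1 (Erbb3, by -1.68) lower, with a median of 3.14, led by the neuronal tubulin Tubb3 at 4.60 and the endothelin receptor Ednrb at 4.58 (8.48 to 8.68 against 5.78 to 5.83). Blood cells were represented too. Of 7 erythroid genes 5 were higher, led by the embryonic globins Hba-x at 6.28 and Hbb-y at 5.28 (6.80 to 6.95 against 5.01 to 5.16), a count of 2 without the probe set types that can cross-hybridize. Of 7 macrophage and leukocyte genes 6 were higher, led by the growth factor receptor Csf1r at 2.86 and the actin regulator Coro1a at 1.95 (5.35 to 5.49 against 4.53 to 4.57). The mean level of the 10 endothelial genes was 7.85 to 7.97 in mesenchyme arrays and 4.83 to 4.89 in endoderm arrays. The endoderm mean was below the limit for 4 of the 12 pericyte, 4 of the 12 mesenchyme, 2 of the 6 neural crest, 1 of the 5 erythroid and 4 of the 6 macrophage genes called higher, among them Myh11, Tubb3, Ednrb, Csf1r and Coro1a. The part of these other cells in the differences of the 10 genes was not tested.

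In the opposite direction, 14 of 14 epithelium genes were lower in mesenchyme, where 27.7% of all genes tested were. Their median was -5.09, led by the transcription factor Foxa1 at -7.07 and the junction protein Cldn7 at -6.22. The layers were thus separated by the markers of each, although the epithelium list reached 6.04 in mesenchyme pool 4, 5.84 in pool 3 and 5.43 in pool 2, against 10.65 to 10.77 in endoderm. Mesenchyme pool 4 was also the lowest pool for 5 of the 10 endothelial genes. Leaving out this pool, or any other, ended the call of none of the 10.

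**Figure D3:**
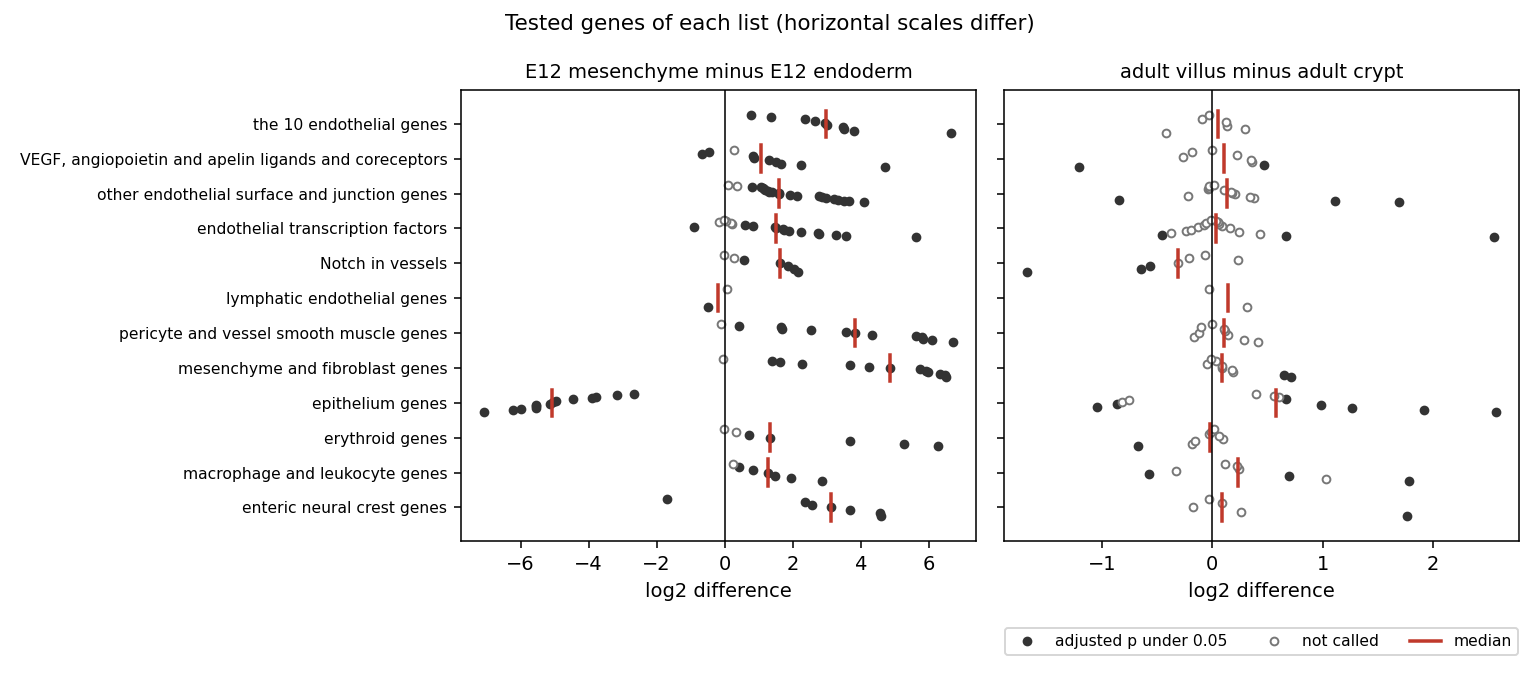
Log2 differences of the tested genes of each list, E12 mesenchyme minus E12 endoderm on the left and adult villus minus adult crypt on the right, on different horizontal scales, with filled points for an adjusted p under 0.05 and a bar for the median. The 10 endothelial genes have a median of 2.98 between the E12 layers and 0.05 for the 6 of them tested in the adult.

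None of the 10 genes was called between adult villi and crypts. Only 6 of them, Kdr, Flt1, Cdh5, Esam, Aplnr and Egfl7, passed the lower limit of 5.78 in at least 3 of the 6 adult arrays, and 0 were called higher or lower by limma, where 16.9% of the 9962 genes tested were called higher in villi and 15.0% lower. At an unadjusted p under 0.05 there was 1, Esam, where 42.3% of all genes passed. The median difference of the 6 was 0.05, and the median of all genes was -0.00089. Of these genes 2 did not overlap between the groups, Cdh5 and Esam, where 47.8% of all genes did not.

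Esam measured 7.48, 7.39 and 7.05 in K12, K21 and K41 and 6.90, 6.84 and 6.93 in V12, V41 and V275. Every villus array was thus below every crypt array, by -0.42 ± 0.15 in the means (SE, n = 3 per group; 95% interval -0.78 to -0.06; limma adjusted p = 0.077). Without K41, the lowest crypt array, the difference was -0.55 and passed the threshold (limma adjusted p = 0.029). Kdr measured 7.55, 7.38 and 7.35 in crypts and 7.32, 7.39 and 7.29 in villi, and the groups overlapped. The 95% interval of its difference of -0.09 ran from -0.39 to 0.21. Flt1 differed by 0.13 (95% interval -0.19 to 0.45), with 7.94, 7.80 and 7.79 in crypts and 7.99, 8.09 and 7.85 in villi. Neither VEGF receptor therefore showed a difference beyond the spread of the arrays, and a doubling of the measured signal lies outside both intervals.

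Cdh5 measured 5.97, 6.00 and 5.98 in crypts and 6.06, 6.08 and 6.20 in villi. Its villus arrays were all the higher, by 0.13 in the means (95% interval -0.17 to 0.42; limma adjusted p = 0.49). Aplnr was represented here by the probe set with the smaller E12 difference. That probe set measured 5.96, 5.70 and 5.77 in crypts and 5.93, 6.29 and 6.10 in villi. The difference was 0.29 (95% interval -0.06 to 0.65, limma adjusted p = 0.19). Its values in K21 and K41 were below the limit of 5.78, and the Cdh5 arrays lay little above that limit. Egfl7, by a different probe set than at E12, measured 8.46, 8.17 and 8.03 in crypts and 8.06, 8.23 and 8.27 in villi. The groups overlapped, and its difference of -0.031 (95% interval -0.40 to 0.34) became 0.088 without K12 and 0.034 without V12. All 6 genes thus differed in measured signal by less than a doubling by the bounds of their intervals. The E12 pair in the same table differed by 1.65 for Kdr and 0.55 for Flt1, against 3.79 and 1.35 in the 6-array table. The intervals therefore bound the signal of these probe sets and not the difference in RNA.

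The other 4 genes did not pass the lower limit and lay near the array background. Tie1 measured 4.86, 5.48 and 5.24 in crypts and 5.36, 6.27 and 5.56 in villi, with V41 the highest, and Pecam1 measured 5.37, 5.01 and 5.01 in crypts and 5.36, 5.37 and 5.55 in villi. In a fit without the lower limit these differed by 0.54 and 0.30 (limma adjusted p = 0.19 and 0.18), Tek by 0.17 (0.44) and Emcn by -0.06 (0.79). Tek measured 4.76 to 5.20 and Emcn 4.85 to 5.19 over the 6 adult arrays, and at such signals a difference can be hidden by background. Of the 17 probe sets of the 10 genes, 10 passed the lower limit in the adult arrays and 0 were called.

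Within the 8-array table, the adult arrays could be set beside the E12 pair, without a test because each E12 layer has 1 array there. By the probe sets used at E12, all 6 adult arrays were below the E12 mesenchyme array for 10 of 10 genes. The same was so for 37.2% of the genes tested between the E12 layers and for 60.9% of those called higher in mesenchyme. The share was 87.1% for the 482 genes called at least 4-fold higher in mesenchyme, as 8 of the 10 were. Against the E12 endoderm array, 4 of the 10 genes (Kdr, Flt1, Tek and Esam) had all adult arrays above it, where 25.6% of all genes tested did. Another 2 (Aplnr and Egfl7) had all below, where 36.8% did. Tek lay above only narrowly, at 4.76 to 5.20 against 4.73, with all these values below the limit of 5.78. Kdr lay at 7.29 to 7.55 in the adult arrays, between 7.06 in the endoderm and 8.70 in the mesenchyme array. Aplnr, by the probe set used at E12, lay at 4.07 to 4.60 in the adult arrays, against 4.88 in endoderm and 10.44 in mesenchyme, and all but the mesenchyme value are below the limit of 5.78. The position against endoderm depended on the probe set. The other probe set of Aplnr lay at 5.70 to 6.29 in the adult arrays and 5.79 in endoderm. The one of Egfl7 used in the adult test lay at 8.03 to 8.46 and 8.16, so that both had adult arrays on either side. For Egfl7 the position against mesenchyme depended on it too. Another probe set measured 6.016 in K21 and 6.026 in V275, above 5.995 in the mesenchyme array. Flt1 lay at 7.79 to 8.09 in the adult arrays, between 7.66 in endoderm and 8.21 in mesenchyme.

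**Figure D4:**
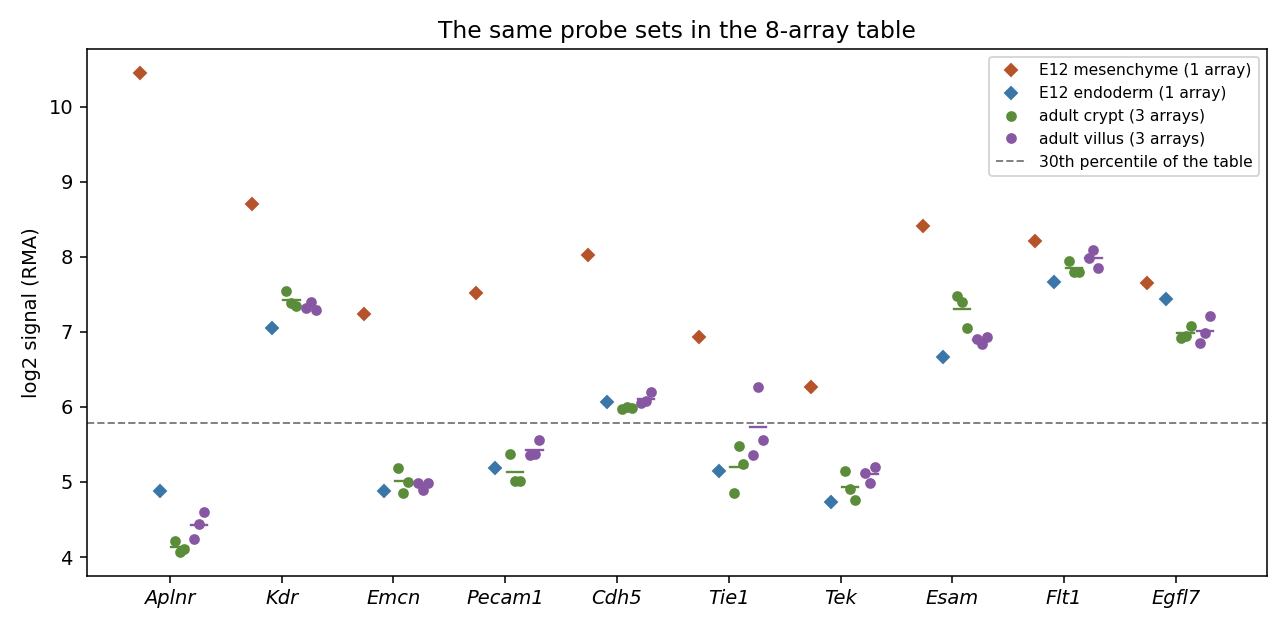
Log2 signal (vertical axis) of the 10 endothelial genes (horizontal axis), by the probe sets used for the E12 comparison, in the 8-array table, with circles for the 3 crypt and 3 villus arrays, short lines for their means, diamonds for the single E12 mesenchyme and endoderm arrays and a dashed line at the 30th percentile, 5.78. All adult arrays lie below the E12 mesenchyme array for every gene, and those of Tek, Pecam1, Emcn and Aplnr lie below the dashed line.

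**Figure D5:**
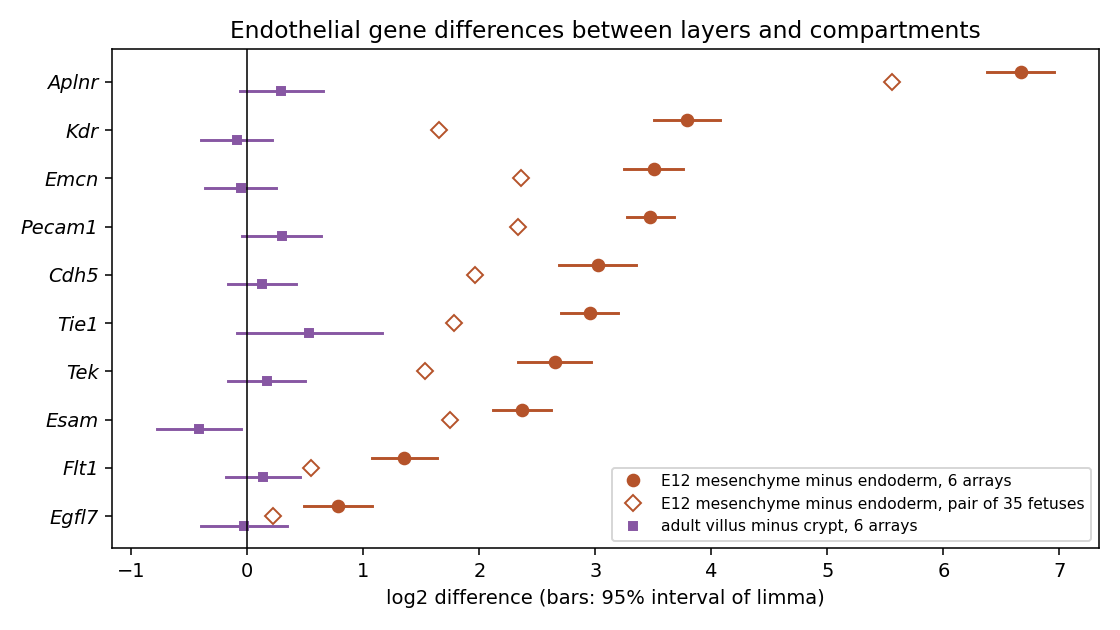
Log2 differences of the 10 genes for E12 mesenchyme minus E12 endoderm (3 arrays each, with 95% intervals), for the E12 pair pooled from 35 fetuses (1 array each, no interval) and for adult villus minus adult crypt (3 arrays each, with 95% intervals). The E12 differences run from 0.78 to 6.67, those of the pair from 0.23 to 5.56, and the adult intervals include 0 for all genes but Esam.

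The counts of related vascular genes called in the adult stand beside 16.9% of all genes called higher in villi and 15.0% called lower. Of 8 tested ligands and coreceptors 1 was higher in villi and 1 lower, with a median of 0.11. Vegfb, a ligand of Flt1, measured 6.15 ± 0.23 in villi and 7.36 ± 0.30 in crypts (SD, n = 3 each; limma adjusted p = 0.0036), and Nrp1 was higher in villi by 0.47 (limma adjusted p = 0.031). The Nrp1 call was lost without K12, K21, K41, V41 or V275, with differences of 0.41 to 0.53 and adjusted p of 0.040 to 0.090 over the 6 arrays left out in turn. Of 14 other surface and junction genes 2 were higher and 1 lower, with a median of 0.14. Stab1, a scavenger receptor, was higher by 1.69 and Efnb2, the ephrin ligand of arterial endothelium, by 1.12, while Ephb4, its venous receptor, was lower by -0.85. The crypt means of Nrp1 (5.67) and Stab1 (5.35) were below the limit of 5.78, so these differences too are set in part by background. With quantile normalization 4 of the surface genes were called higher in place of 2. The Efnb2 call was lost without K12, K21 or V12, with differences of 0.90, 1.04 and 0.89. At E12 neither Efnb2 nor Ephb4 was called between the layers, with differences of 0.37 and 0.09. Their endoderm means were 9.73 and 7.67, so their signal was not confined to the layer that holds the vessels. The cell type behind their adult calls was not tested.

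Of 17 transcription factors 2 were higher and 1 lower in villi, with a median of 0.03, where 16.9% of all genes were called higher and 15.0% lower. The T-box factor Tbx3 was higher by 2.55, Foxo1 by 0.67 and Nr2f2, a factor of venous identity, was lower by -0.45. At E12 Tbx3 also had a signal in endoderm, with a mean of 7.26, although it was higher in mesenchyme by 0.83. The call of Foxo1 held without V275 but not without any other single array, with differences of 0.52 to 0.85 and limma adjusted p of 0.016 to 0.11. The count of factors lower was 0 when any single array but K41 was left out, so Nr2f2 was not called in those fits. Which factor was called lower without K41 was not recorded. Of 7 vessel Notch genes 3 were lower, where 15.0% of all genes were, and 0 higher, with a median of -0.31. The lower genes were Notch1 at -1.68, Notch4 at -0.64 and Hey1 at -0.56. Without K21 only Notch1 was called and Notch4 was not (-0.62, limma adjusted p = 0.062). At E12 Notch1 was as high in endoderm (mean 8.32) as in mesenchyme (8.31), and the cell type behind its adult call was not tested. Of 2 lymphatic genes 0 were called, and Reln differed by 0.31 (limma adjusted p = 0.14). Of 9 pericyte and smooth muscle genes 0 were called by limma and 1 had an unadjusted p under 0.05, Acta2 at 0.41 (adjusted p = 0.098).

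The lists of other cell types are given beside the background of 16.9% of all genes called higher in villi and 15.0% lower. Of 12 epithelium genes 5 were higher in villi and 2 lower (Foxa1 and Foxa2), with a median of 0.58, led by the junction protein Cldn4 at 2.57 and the brush border protein Vil1 at 1.91; leaving out single arrays gave 3 to 6 and 0 to 3, the lowest counts without K12 or K21. Of 9 mesenchyme and fibroblast genes 2 were higher, Thy1 by 0.71 and the intermediate filament Vim by 0.65, and neither was called without K12, K21, K41 or V275 (Vim also not without V41 and, at an adjusted p of 0.0503, without the lower limit for testing), with differences of 0.49 to 0.86 for Thy1 and 0.54 to 0.83 for Vim. Of 8 macrophage and leukocyte genes 2 were higher and 1 lower, led by the leukocyte phosphatase Ptprc at 1.78 and the adaptor Tyrobp at 0.70, the latter lost without K21 (0.66, adjusted p = 0.062). The gene lower in villi was Csf1r, by -0.57, and the count of lower genes was 0 when any single array but K41 was left out. Of 8 erythroid genes 1 was lower, the membrane protein Epb42 by -0.67 (0 with the median of probe sets), and of 5 enteric neural crest genes 1 was higher, the receptor Erbb3 by 1.77. At E12 Erbb3 was the gene of this list that was lower in mesenchyme, with means of 8.29 there and 9.97 in endoderm. The mean level of the 10 endothelial genes was 6.20 to 6.39 in crypts and 6.31 to 6.44 in villi, that of the mesenchyme list 5.90 to 6.00 and 6.00 to 6.19, and that of the macrophage list 6.23 to 6.37 and 6.46 to 6.79.

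The profile of the 10 genes over all 14 arrays, each gene centred on its mean within each table, was set beside every gene that passed the lower limit in both tables, 8517 in all. The correlation of each of the 10 with the mean of the other 9 ran from 0.87 (Egfl7) to 0.996 (Pecam1). The most alike genes outside the 10 were Stmn2, a regulator of neuronal microtubules, at 0.999, Tgfb1i1, a focal adhesion protein, at 0.998, and Fxyd6, Tmem119, Pde1a, Ccn4, Ntn1 and Slit2, all at 0.997. Ntn1 and Slit2 are secreted guidance cues, and none of these 8 was in the endothelial lists. They differed between the E12 layers by 2.76 (Pde1a) to 5.28 (Ntn1). The arrays share the split into 4 E12 mesenchyme samples against all others, so these correlations describe that split and carry no test.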

How the data were processed

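RNA was labelled with phycoerythrin and hybridised to single-colour arrays. The deposited values are log2 signals of 22690 probe sets, made by the authors with RMA according to the submitters' processing notes; RMA corrects background, normalizes arrays together and summarises the probes of a set. Its version is not given in the sources used here, nor is the set of arrays normalized together. Probe sets were named through the platform's gene table; 20393 had 1 symbol, giving 12394 genes, and a gene with several probe sets took its brightest one on average in the comparison. A gene was tested where at least 3 arrays of the comparison exceeded the 30th percentile of the whole table. Tests used limma 3.58.1 (R 4.3.3; lmFit and eBayes) within 1 table, p-values were adjusted over all genes tested by the Benjamini-Hochberg method, and calls were made at an adjusted p under 0.05. The number of arrays limits the precision.

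The genes and the 11 gene lists set beside them were chosen with earlier results of these data known. From each list the rule named the 2 called genes with the largest difference, or, with no called gene, the one that differed most, besides the 8 genes with the profile most like that of the members. The labels do not say whether same-numbered samples came from the same animals, so p-values measure the spread between these samples. Deviations from the group means correlated at 0.21, 0.23 and 0.11 for E12 samples 2, 3 and 4 of both layers, past the criterion of 0.1 for pairing by the numbers in the titles; mesenchyme 4 and endoderm 3 also reached 0.13. Adult crypts and villi share only the numbers 12 and 41. Alternatives were no lower limit, quantile normalization, the median of probe sets, no cross-hybridizing probe set types, a trended and robust prior, the replicate block, all E12 arrays with the table as a block, and leaving out each array.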

Additional observations from a re-analysis of the deposited data

How the results depend on the processing

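Between the E12 layers, all 10 endothelial genes were called higher in mesenchyme under every alternative that kept them; without cross-hybridizing probe set types 7 were tested and 7 called. With the replicate block the count was 10 of 10 at E12 and 0 in the adult, and it changed no call of the 10 genes; over all genes it gave 2442 higher and 2647 lower in mesenchyme, and 1780 higher and 1593 lower in villi. In the adult, leaving out single arrays gave 0 to 1 endothelial genes lower in villi (1, Esam, without K41), 1049 to 1604 genes higher over all genes (1687 with all arrays) and 925 to 1538 lower (1496 with all arrays), the lowest counts without K21, which leaves fewer arrays. The difference of Egfl7 between villi and crypts, -0.031 with all arrays, ran from -0.12 to 0.088 when single arrays were left out and changed sign without K12 (0.088) and V12 (0.034). With no lower limit all 10 genes could be tested in the adult and 0 were called. The alternatives were run for 58 results between the E12 layers and 51 in the adult (the counts, the 10 genes and the genes the rule named), not for the probe sets, the pair of 35 fetuses or the other genes named. Of these, 746 of 748 values between the E12 layers were taken as unchanged, and in the adult 519 of 601 were. Of the rest in the adult, 74 lost and 6 gained a call or a count, and 2 changed sign. A gene's difference was taken as unchanged where its direction and call held. A count was taken as unchanged within a set fold of its value in the main fit. Over all genes, 1194 higher in villi without K12 was taken as unchanged from 1687, and 1049 without K21 was not. Among the adult lists, leaving out cross-hybridizing probe set types gave 2 ligands and coreceptors higher and 0 lower, 1 surface gene higher and 0 lower, 3 epithelium and 1 macrophage genes higher; the median of probe sets gave 0 transcription factors and 0 macrophage genes lower and 1 mesenchyme gene higher; and the trended prior gave 2 transcription factors and 0 macrophage genes lower. Signals near the array background limit Tek, Tie1, Pecam1 and Emcn in the adult and the crypt values of Aplnr, Nrp1 and Stab1. They also limit the endoderm values of 6 genes at E12.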
